A study of Mus musculus with 4 samples.

Results

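The genes described here are 8 genes used to recognise Lamp5-class and neurogliaform interneurons of the cortex: Lamp5, Ndnf, Reln, Kit, Kitl, Jam2, Id2 and Sncg. They were taken by gene symbol from the deposited count tables and make up 8 of the 24100 genes listed there. The study profiled adult male Crh-IRES-Cre mice of the Jackson Laboratory, which carry Cre under the control of Crh, the corticotropin-releasing hormone gene. All animals were untreated controls. Polysomes tagged with EGFP were pulled down from homogenized prefrontal cortex (translating ribosome affinity purification, TRAP), which gave 3 immunopurified (IP) libraries, and 1 Input library represents the same tissue. Each library pooled 5 males. The allele or vector that carried the tagged ribosome, and whether Input and IP shared animals, are not given in the sources used here, so every p-value reflects how far these few libraries scatter, and that scatter may be technical.

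Neurogliaform cells are GABAergic interneurons that are densest in the outermost cortical layer and inhibit their neighbours by diffuse release of GABA. In mouse cortex they fall mostly into the class named after Lamp5, a relative of the lysosomal membrane proteins, and many arise in the caudal ganglionic eminence, as do the Vip class and the class named after Sncg. None of the 8 genes is exclusive to this class. Lamp5 is also transcribed by excitatory neurons of the upper layers, Reln by other interneurons and by Cajal-Retzius cells, Jam2 by endothelial cells and Id2 by glia and excitatory neurons.

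The libraries held 14474529 counts for the Input and 10031072 to 23548375 for the IP. No pair of libraries agreed within sampling noise. Crh was at 1.32 CPM (counts scaled to each library's size with its TMM factor) in the Input and at 174 to 501 CPM in IP, which fits the labels. By the quasi-likelihood test of edgeR at an adjusted p of 0.05, 67 of 14636 genes tested (0.458%) differed between IP and Input, 60 of them higher (0.41%) and 7 lower (0.0478%) in IP. The split was 51 to 15 with upper-quartile factors and 50 to 15 with library totals, and the count was 210 without IP 1 and 105 without IP 2. The excitatory markers were still present in IP, with Slc17a7, the vesicular glutamate transporter, at 633 CPM in the Input versus 201 to 403 CPM in IP.

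All 8 genes could be tested, and 1 of them, Kit, rose in IP, while 0 fell. Below an unadjusted p of 0.05 lay 2 higher genes, Kit and Reln (3.2% of all genes), and 1 lower gene, Lamp5 (1.23%, or 4.43% in either direction). DESeq2, which gave Sncg no adjusted p, called 2 of the other 7, Kit and Reln, and 1.24% of all genes (those with no adjusted p included), while limma-voom called Kit and 0.348%. Kit alone was called with RLE (0.451% of all genes), upper-quartile (0.451%) or library-total factors (0.444%), with a robust prior (0.533%), no low-count filter (0.612%) or a mean of at least 5 CPM (0.578%). The same held without IP 1 (1.47%), IP 2 (0.727%) or IP 3 (0.623%). All 3 IP libraries lay above the Input for Kit, Reln, Jam2, Ndnf and Sncg, and all 3 lay below it for Lamp5, Id2 and Kitl. So for 8 of 8 genes the IP libraries were on a single side of the Input, as they were for 43.8% of all genes tested (19.7% above and 24.1% below). The median log2 fold of the 8 genes was 0.85, beside 0.083 for all genes tested, and the folds ran from -1.88 to 3.90. The comparison sets RNA of captured polysomes against RNA of whole tissue. In these pooled libraries, differences in the cells captured, in RNA per cell and in how much of an RNA is bound to ribosomes cannot be told apart.

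**Figure D1:**
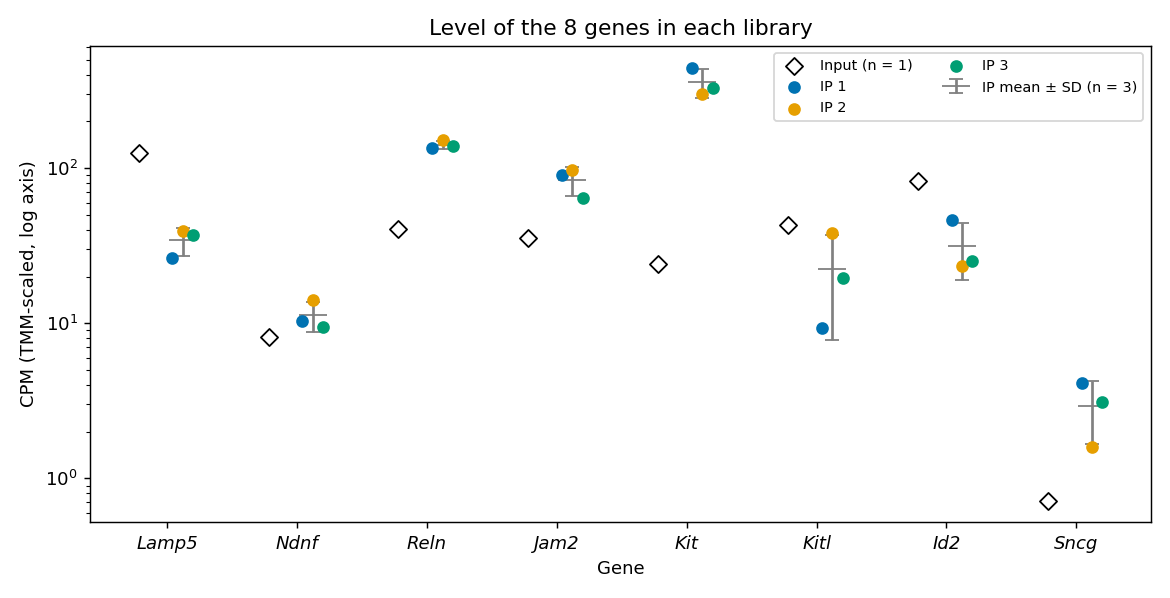
CPM (log axis) of the 8 genes in the Input (open diamonds, 1 library) and in IP 1, 2 and 3 (coloured points, with mean ± SD, n = 3). Kit stands at 302 to 445 CPM in IP against 24.0 CPM in the Input, while Lamp5 stands at 26.2 to 39.6 CPM against 126 CPM.

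Kit encodes the receptor tyrosine kinase for stem cell factor (Entrez 16590, chromosome 5, 75574916 to 75656722 in GRCm38, 8911 exon bases, none shared with another annotated gene). It had 401 counts in the Input and 10203, 2828 and 3794 counts in IP 1, 2 and 3, which is 24.0 CPM against 445, 302 and 327 CPM. Every IP library was far above the Input, and IP 1 was the highest. The IP mean of Kit was 358 ± 76.1 CPM (SD, n = 3). Kit rose 14.9-fold, with 3.90 ± 0.54 (SE) as the log2 fold and an adjusted p of 0.000603. That fold lay at the 98.6th percentile of all genes tested. The log2 fold was 3.69, 4.003 and 3.96 without IP 1, 2 and 3, and Kit was also called by DESeq2 (adjusted p = 8.15e-14) and limma-voom (0.0196). Kit is known also as a gene of mast cells. Of 7 mast cell genes (Cpa3 and 6 others), 6 had 0 counts in the Input and 7 had 0 counts in each IP library. On the list of the Vip class, which also arises in the caudal ganglionic eminence, 7 of 10 genes rose by edgeR (median log2 fold 5.34). The part of mast cell or Vip-class RNA in the values of Kit was not tested.

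Kitl encodes stem cell factor, the ligand of KIT (Entrez 17311, chromosome 10, 100015630 to 100100416). It was at 43.3 CPM in the Input versus 9.37, 38.1 and 19.6 CPM in IP 1, 2 and 3. The IP libraries were all lower than the Input but differed 4.06-fold among themselves, the widest spread of the 8 genes. IP 2 lay close to the Input, since the 95% counting intervals (Poisson, counting error only) were 34.2 to 42.2 CPM for IP 2 and 40.2 to 46.6 CPM for the Input. Kitl had a log2 fold of -0.96 ± 0.89 (adjusted p = 0.9999), so its difference did not pass. That fold was -0.61 without IP 1 and -1.58 without IP 2. The receptor was thus called and the ligand was not, but the difference between their folds was not tested.

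Lamp5 (Entrez 76161, chromosome 2, 136052239 to 136069917) had 2099 counts in the Input and 601, 370 and 427 counts in IP 1, 2 and 3. On the CPM scale it was at 126 in the Input and at 26.2, 39.6 and 36.8 in IP, so the gene that names the class was lower in each IP library. The ratio of the Input to the IP mean was 3.68. With a log2 fold of -1.88 ± 0.62 (SE) Lamp5 did not pass (adjusted p = 0.480), nor did it under any of 11 alternatives (0.0921 to 0.541). Markers of the upper-layer excitatory neurons, which also make Lamp5, moved in the same direction. Of 10 such markers, 6 had every IP library under the Input (24.1% of all genes tested) and 0 had every one over it (19.7%). The median log2 fold of these markers was -0.78. Their summed level was 1280 CPM in the Input versus 760 to 1202 CPM in IP. By edgeR 0 of the 10 were called, with 2 below an unadjusted p of 0.05 and 0 by DESeq2 or limma-voom. Over IP 1, 3 and 2, in that order, Lamp5, Kitl and the summed upper-layer markers each went from lowest to highest. The sums of excitatory, astrocyte, oligodendrocyte, endothelial and mural markers had the same order, so it was not particular to upper-layer markers. The sums of microglial and meningeal markers did not have it. The part of excitatory RNA in the values of Lamp5 and Kitl was not tested.

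Ndnf encodes a secreted neurotrophic factor that marks interneurons of layer 1 (Entrez 68169, chromosome 6, 65671590 to 65712326). It had 136 counts in the Input and 237, 132 and 109 counts in IP, or 8.16 CPM against 10.3, 14.1 and 9.40 CPM. Each IP library was slightly above the Input, but the counting interval of the Input (6.84 to 9.65 CPM) overlapped those of IP 1 (9.06 to 11.7 CPM) and IP 3 (7.72 to 11.3 CPM). The log2 fold of Ndnf was 0.47 ± 1.30 (adjusted p = 0.9999), and it was 0.27 without IP 2, 0.25 with upper-quartile factors and 0.19 with library totals.

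Reln encodes reelin, a large secreted glycoprotein of the extracellular matrix (Entrez 19699, chromosome 5, 21884454 to 22344702). It was at 40.5 CPM in the Input versus 135, 151 and 138 CPM in IP 1, 2 and 3. The IP libraries were 3.49 times the Input on average and nearly equal, with a coefficient of variation of 5.95%, the smallest of the 8 genes. The log2 fold of Reln was 1.80 ± 0.56 (adjusted p = 0.388), and Reln was called by DESeq2 (0.0181) but not by edgeR or limma-voom (0.535). Of its exon bases, 1.04% are shared with the antisense gene Gm10475. Lhx1 and Lhx5, transcription factors of Cajal-Retzius cells, had 0 counts in every library, and Trp73 was at 0.540 CPM in the Input versus 0.436, 0.535 and 3.36 CPM in IP. Of the 6 tested genes on that list, which includes Reln and Ndnf, 1 was called by edgeR, Calb2 (log2 fold 5.05), which Vip-class cells also make, and the median was 1.60. DESeq2 called 2 of the 6, Calb2 and Reln itself, and limma-voom 0, with an adjusted p of 0.312 for Calb2. The summed level of the 8 listed genes was 84.1 CPM in the Input versus 263 to 344 CPM in IP. This sum contains Reln itself, at 40.5 CPM in the Input versus 135 to 151 CPM in IP, and also Calb2. It is therefore not separate from the values of Reln.

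Jam2 encodes a junctional adhesion molecule (Entrez 67374, chromosome 16, 84774123 to 84825928). It was at 35.7 CPM in the Input versus 90.7, 96.8 and 64.0 CPM in IP 1, 2 and 3, above the Input in each. Its log2 fold of 1.23 ± 0.67 did not pass (adjusted p = 0.9999). Endothelial cells make Jam2 too, and most of their markers lay higher in IP, though few passed any test. Of 12 endothelial markers, 9 lay above the Input in all 3 IP libraries and 1 below (19.7% and 24.1% of all genes tested). Their median log2 fold was 2.89. Their summed level was 41.3 CPM in the Input versus 146, 512 and 223 CPM in IP 1, 2 and 3, and none had 0 counts in any library. By edgeR 0 of the 12 were called, with 4 below an unadjusted p of 0.05, 2 by DESeq2 and 0 by limma-voom. For 9 mural markers the sum was 79.9 CPM in the Input versus 165 to 369 CPM in IP, with 0 called by any of the 3 tools and 2 below an unadjusted p of 0.05. Jam2 and the endothelial sum were both highest in IP 2, but IP 1 was above IP 3 for Jam2 and below it for the endothelial sum. The mural, excitatory, astrocyte and oligodendrocyte sums were also highest in IP 2, so this was not particular to endothelial markers. The microglial and meningeal sums were highest in IP 3. The part of vascular RNA in the values of Jam2 was not tested.

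Id2 encodes an inhibitor of DNA binding that pairs with E proteins, transcription factors of the basic helix-loop-helix type, and keeps them off DNA (Entrez 15902, chromosome 12, 25093799 to 25097140). It was at 82.5 CPM in the Input versus 46.4, 23.4 and 25.2 CPM in IP 1, 2 and 3. Each IP library was lower than the Input, and IP 1 was about 1.98 times IP 2. The log2 fold of Id2 was -1.38 ± 0.71 (adjusted p = 0.9999). Markers of astrocytes, another source of Id2, were also mostly lower in IP, with a median log2 fold of -1.15. Of 11 tested, 10 had every IP library under the Input (24.1% of all genes tested) and 0 had every one over it (19.7%). Their summed level was 2772 CPM in the Input versus 1686, 2868 and 1833 CPM in IP 1, 2 and 3. The sum was above the Input in IP 2 and below it in the other IP libraries. Across the IP libraries the orders were reversed: Id2 was highest in IP 1 and lowest in IP 2, and the astrocyte sum the opposite. The part of astrocyte RNA in the values of Id2 was not tested. With each of edgeR, DESeq2 and limma-voom 0 of the 11 astrocyte markers were called, with 1 below an unadjusted p of 0.05.

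Sncg encodes gamma-synuclein, a small cytosolic protein that names a class of interneurons which overlaps the Cck basket cells (Entrez 20618, chromosome 14, 34370274 to 34374789). It had only 12 counts in the Input and 95, 15 and 36 counts in IP, which is 0.720 CPM against 4.14, 1.60 and 3.10 CPM. IP 1 and IP 3 lay above the counting interval of the Input (0.372 to 1.26 CPM), whereas the interval of IP 2 (0.898 to 2.65 CPM) overlapped it. The log2 fold of Sncg was 2.03 ± 2.49 (adjusted p = 0.9999), an error larger than the fold.

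The order of the 8 genes by level per length differed between Input and IP. Per kb of annotated exon (CPM per kb, exon lengths from GENCODE M21), the Input was led by Lamp5 at 42.9 and Id2 at 33.8, followed by Kitl at 7.32 and Jam2 at 5.90. Kit was the fifth there at 2.70, ahead of Reln at 1.70, Sncg at 0.845 and Ndnf at 0.807. In IP Kit came first at 40.2 ± 8.54 CPM per kb (SD, n = 3), and its lowest library (33.9) was above the highest library of Jam2, the next gene (16.01). Jam2 (13.9 ± 2.88), Id2 (13.0 ± 5.25) and Lamp5 (11.7 ± 2.41) followed with overlapping libraries, so their order is not resolved. Reln (5.95 ± 0.354) lay below Lamp5 in all libraries but overlapped Kitl (3.78 ± 2.46), which overlapped Sncg (3.46 ± 1.497). Ndnf was last at 1.12 ± 0.247 CPM per kb, below all libraries of Sncg. Sncg had only 12 counts in the Input and 15 in IP 2, so its order against Ndnf is not firm.

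**Figure D2:**
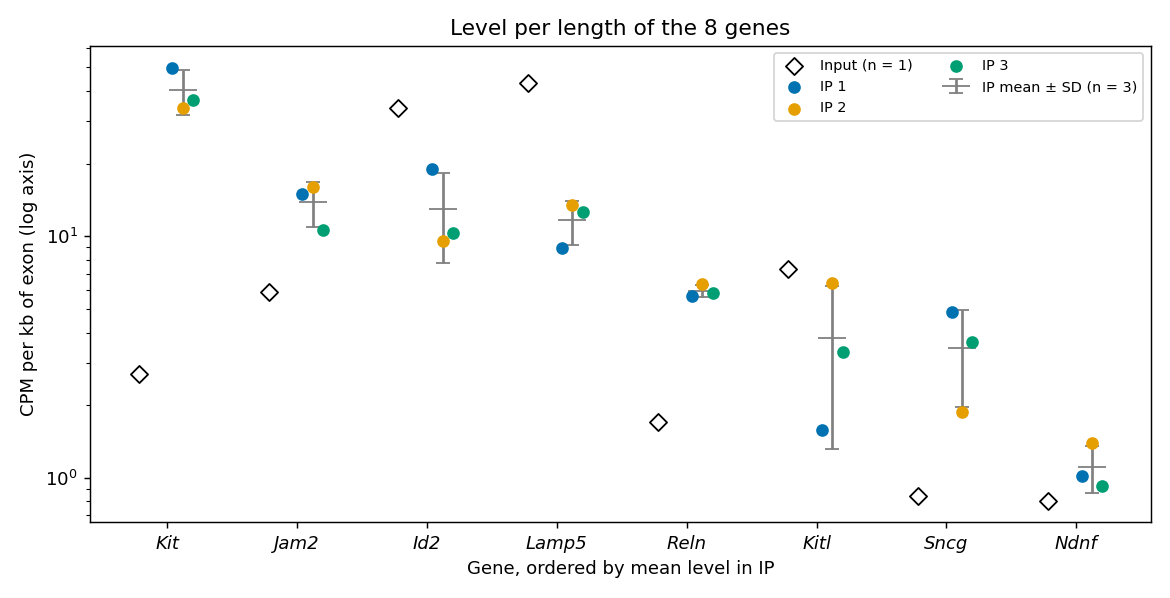
CPM per kb of exon (log axis) of the 8 genes, ordered by their mean in IP, in the Input (open diamonds) and IP 1, 2 and 3 (points, mean ± SD, n = 3). Kit leads in IP at 40.2 CPM per kb and is the fifth in the Input at 2.70, where Lamp5 leads at 42.9.

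Since IP is enriched for GABAergic transcripts as a whole, each gene was also set against the sum of Gad1 and Gad2, which make the GABA-synthesizing enzymes. This share is taken within a library and does not depend on the scaling between libraries. The sum was 383 CPM in the Input versus 2362 ± 389 CPM in IP (SD, n = 3). Kit was the only one of the 8 genes with a larger share in IP than in the Input. It went from 6.28% of the sum in the Input to 16.9%, 15.8% and 12.9% in IP 1, 2 and 3.

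The other 7 genes had a smaller share in each IP library than in the Input. Because the Gad sum itself was higher in IP, any gene whose CPM rose less than that sum has a smaller share there. How many of all genes tested did so was not counted. A smaller share can therefore not be called particular to these 7 genes, nor a larger share to Kit. Lamp5 was at 32.9% of the Gad sum in the Input and at 0.997%, 2.06% and 1.45% in IP, 21.9 times lower on average. Most of this came from the larger Gad sum, since the CPM of Lamp5 in the Input was 3.68 times the IP mean. Id2 was at 21.5% in the Input and 0.989% to 1.77% in IP, and Kitl at 11.3% and 0.357% to 1.99%. The genes with CPM above the Input were also lower on this scale, so they exceeded the Input by less than Gad1 and Gad2 did. Reln was at 10.6% in the Input and 5.13% to 7.87% in IP, Jam2 at 9.32% and 2.51% to 5.05%, and Ndnf at 2.13% and 0.369% to 0.737%. Sncg was at 0.188% in the Input and 0.0837% to 0.158% in IP. These shares are descriptions, since Input RNA of these genes need not come from GABAergic cells, and no test was made of them.

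**Figure D3:**
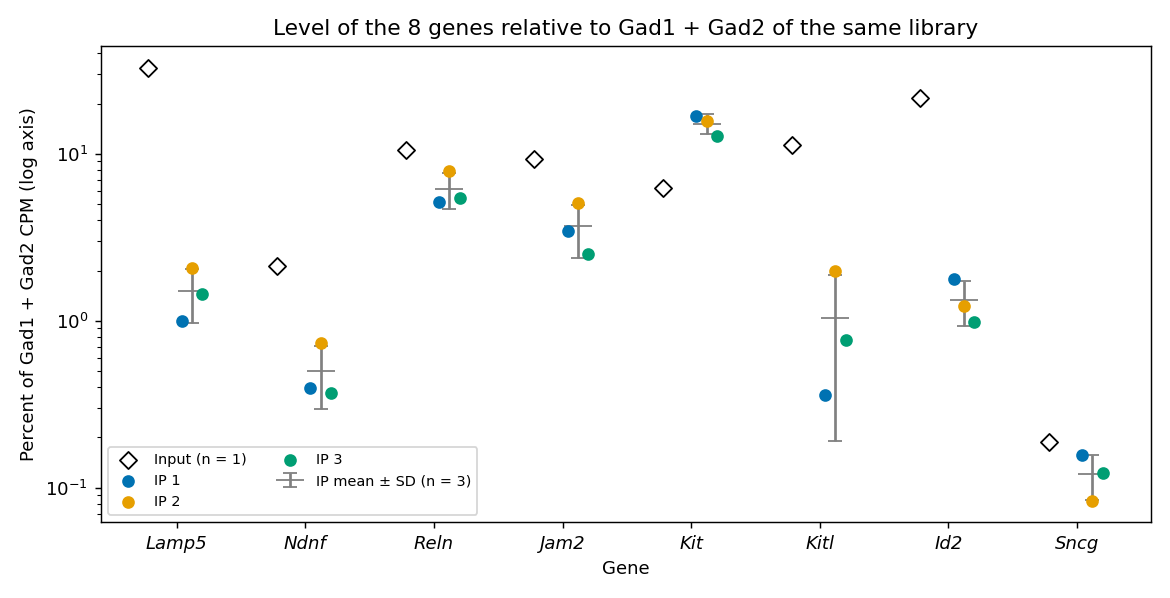
Level of the 8 genes as a percent of the summed CPM of Gad1 and Gad2 in the same library (log axis), in the Input (open diamonds) and IP 1, 2 and 3 (points, mean ± SD, n = 3). Kit lies above the Input in all 3 IP libraries, and the other 7 genes lie below it.

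Among the partners of these genes few passed the test. Of 16 tested genes that act downstream of KIT, 0 were called by edgeR or limma-voom and 1 by DESeq2, with 1 below an unadjusted p of 0.05 and a median log2 fold of 0.38. Highest in CPM were the PI 3-kinase subunit genes Pik3r1 (301 CPM in the Input versus 356 to 546 CPM in IP, log2 fold 0.58 ± 0.40) and Pik3ca (0.54 ± 0.44). The call by DESeq2 was Gab2, the gene of a docking protein, at 32.2 CPM in the Input versus 129, 103 and 114 CPM in IP, a log2 fold of 1.84 ± 0.62 with an adjusted p of 0.532 by edgeR and 0.0251 by DESeq2.

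Neither edgeR, DESeq2 nor limma-voom called any of 16 reelin pathway genes (0 calls each), with 1 below an unadjusted p of 0.05 and a median of 0.15. That one was Vldlr, a receptor for reelin, at 64.0 CPM in the Input versus 178, 162 and 203 CPM in IP, and its log2 fold of 1.499 ± 0.52 did not pass (adjusted p = 0.561). The other reelin receptor, Lrp8, was at 109 CPM in the Input versus 99.9, 97.2 and 158 CPM in IP. The members with the most CPM, Pafah1b1 (log2 fold 0.14 ± 0.35) and the adaptor Dab1 (0.080 ± 0.47), had folds smaller than their errors. With library totals or upper-quartile factors Lrp8, Pafah1b1 and Dab1 took the opposite sign.

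Among 10 tested genes of the JAM family and its partners 0 were called by any of the 3 tools, and 0 lay below an unadjusted p of 0.05 (median 0.40). The scaffold gene Tjp1 was at 192 CPM in the Input versus 232, 456 and 347 CPM in IP (log2 fold 0.85 ± 0.46), and Afdn had a log2 fold of 0.41 ± 0.52. The family members F11r (0.431 to 1.497 CPM over all libraries) and Jam3 (7.44 CPM in the Input versus 0.480 to 3.10 CPM in IP) gave few counts.

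Of the 6 other ID genes and E proteins, 1 rose, the E protein gene Tcf4, and the median was 0.46. Tcf4 was at 627 CPM in the Input versus 2130, 1793 and 1945 CPM in IP 1, 2 and 3, a log2 fold of 1.64 ± 0.34 (adjusted p = 0.0323). This call ended with library totals (0.0986), upper-quartile factors (0.0840), a mean of at least 5 CPM (0.0587) and without IP 3 (0.0685), and it was made by DESeq2 (0.00422) and limma-voom (0.00839). Id2 and Tcf4, whose proteins can pair, thus lay on opposite sides of the Input, but Id2 did not pass. The difference between their folds was not tested.

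Of the 4 relatives of Lamp5, 0 were called by edgeR, DESeq2 or by limma-voom and 0 lay below an unadjusted p of 0.05, with a median log2 fold of -0.27. The lysosomal genes Lamp1 (168 CPM in the Input versus 143 to 179 CPM in IP) and Lamp2 (113 and 93.1 to 174 CPM) straddled the Input, unlike Lamp5.

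Among 17 other tested genes of the Lamp5 class and of neurogliaform cells, 1 rose and 0 fell, with a median log2 fold of 0.34. All 3 IP libraries were over the Input for 7 of the 17 and under it for 3 (19.7% and 24.1% of all genes tested). The gene that rose was Rgs12, a regulator of G-protein signalling, at 13.6 CPM in the Input versus 240, 244 and 221 CPM in IP 1, 2 and 3 (log2 fold 4.11 ± 0.58, adjusted p = 0.000771). Npy, the gene of neuropeptide Y, which many neurogliaform cells release, was at 58.3 CPM in the Input versus 397, 225 and 201 CPM in IP, with a log2 fold of 2.23 ± 0.54 that did not pass (adjusted p = 0.0936). Npy passed without IP 1 (0.0284), 2 (0.0116) or 3 (0.0129), without a low-count filter (0.0115) and by DESeq2 (0.00232), and stood between 0.0504 and 0.233 under the other alternatives. Fam19a1, which names a subgroup of Lamp5 cells, was at 81.5 CPM in the Input versus 13.9, 12.5 and 12.1 CPM in IP, and its log2 fold of -2.67 ± 0.76 passed by DESeq2 (adjusted p = 0.0142) but not by edgeR (0.261). Nkx2-1 and Tmem182 had 0 counts in every library, and Krt73 had 0 counts in each IP library, which allows up to 0.321 CPM in the shallowest.

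The list for the Sncg class and Cck basket cells had 3 of 9 tested members higher, Cnr1 (log2 fold 2.45), Htr3a (5.78) and Adarb2 (4.22), 0 lower, and a median of 2.45. DESeq2 called 5 of the 9 and limma-voom 2, and the call of Htr3a ended with limma-voom (adjusted p = 0.0876). Of the 3 genes, Htr3a is also on the Vip class list, and Adarb2 is shared with caudal interneurons in general. Cnr1 is not on the Vip class list, and it was also called by DESeq2 (adjusted p = 6.06e-06) and limma-voom (0.00839). In the Vip class list 7 of 10 rose by edgeR (8 by DESeq2 and 4 by limma-voom, median 5.34), and its sum went from 138 CPM in the Input to 4354 to 6967 CPM in IP. On the same Sncg-class list, Slc17a8, a vesicular glutamate transporter gene, was at 1.62 CPM in the Input, had 0 counts in IP 1 and IP 2, and was at 7.93 CPM in IP 3.

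**Figure D4:**
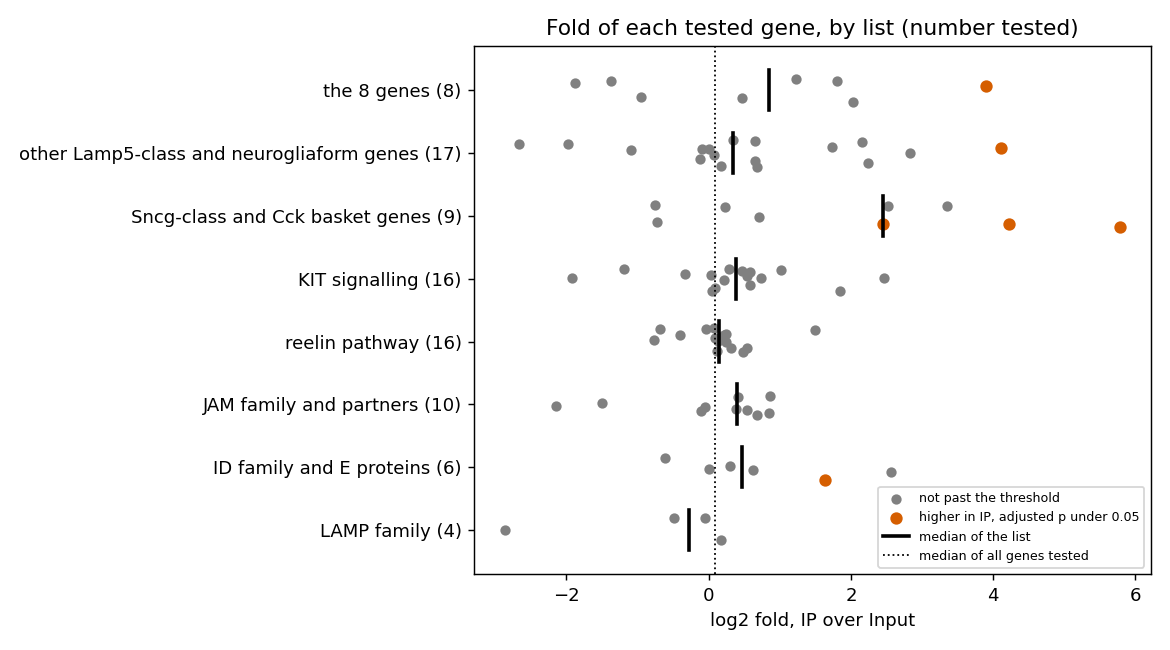
Log2 fold of IP over Input (x axis) for each tested gene of the 8 genes and of 7 lists of related genes, with list medians as bars and the median of all genes tested (0.083) as a dotted line. Orange points passed an adjusted p of 0.05; these are Kit, Rgs12, Cnr1, Htr3a, Adarb2 and Tcf4.

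Genes with a similar pattern were sought for Lamp5 and Kit, by the root mean square distance between log2 ratios to the Input (0.5 CPM added) in the 3 IP libraries, among 10552 genes with a mean of at least 5 CPM. The ratios share the Input, so the measure rests on 4 libraries and is a description. Nearest to Lamp5 were Etv1 (distance 0.15), Apod (0.20) and Fam107a (0.21). Fam107a fell in IP by edgeR (log2 fold -1.96, adjusted p = 0.0313), while Etv1 (0.189) and Apod (0.9999) did not pass. Etv1, a transcription factor gene known from layer 5 excitatory neurons, was at 209 CPM in the Input versus 45.5, 68.9 and 51.6 CPM in IP 1, 2 and 3. Nearest to Kit were Rgs12 (0.32), Prox1 (0.33) and Asic4 (0.34). Prox1, a transcription factor gene of interneurons from the caudal ganglionic eminence, was at 22.1 CPM in the Input versus 352, 207 and 375 CPM in IP, and it rose (log2 fold 3.81, adjusted p = 0.00154).

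Beside these genes, the marker lists of the cell types that the tissue holds gave the following levels. Among 12 pan-GABAergic markers 5 rose, and for 12 of 12 every IP library was over the Input (19.7% of all genes tested). Their median log2 fold was 2.56. Of the Sst and Pvalb class lists 1 of 9 and 1 of 10 rose by edgeR (medians 0.70 and 0.51). DESeq2 called 1 on each, and limma-voom 0 on the Sst list and 1 on the Pvalb list. The call on the Pvalb list was Erbb4, which is also among the pan-GABAergic markers that rose. Pvalb itself had a negative log2 fold that did not pass (-1.07 with a robust prior). The summed Sst list was at 463 CPM in the Input versus 1023 to 1300 CPM in IP. The summed Pvalb list was at 1546 CPM in the Input versus 2669 to 2879 CPM in IP. Of 12 excitatory markers 2 fell, and their sum was 7727 CPM in the Input versus 4985, 8507 and 6747 CPM in IP 1, 2 and 3. The lists of oligodendrocytes (median -1.18), their precursors (-0.87) and microglia (-2.32) had 0 members called by edgeR, DESeq2 or limma-voom, with 2, 2 and 2 below an unadjusted p of 0.05. Of 7 tested meningeal markers 1 fell, Ptgds (median -1.07). Of 3 tested genes rich in peripheral neurons, where Sncg is abundant, 0 were called by any tool, with 1 below an unadjusted p of 0.05 (median 0.99), and Prph was at 0.240 CPM in the Input versus most 0.214 CPM in IP.

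**Figure D5:**
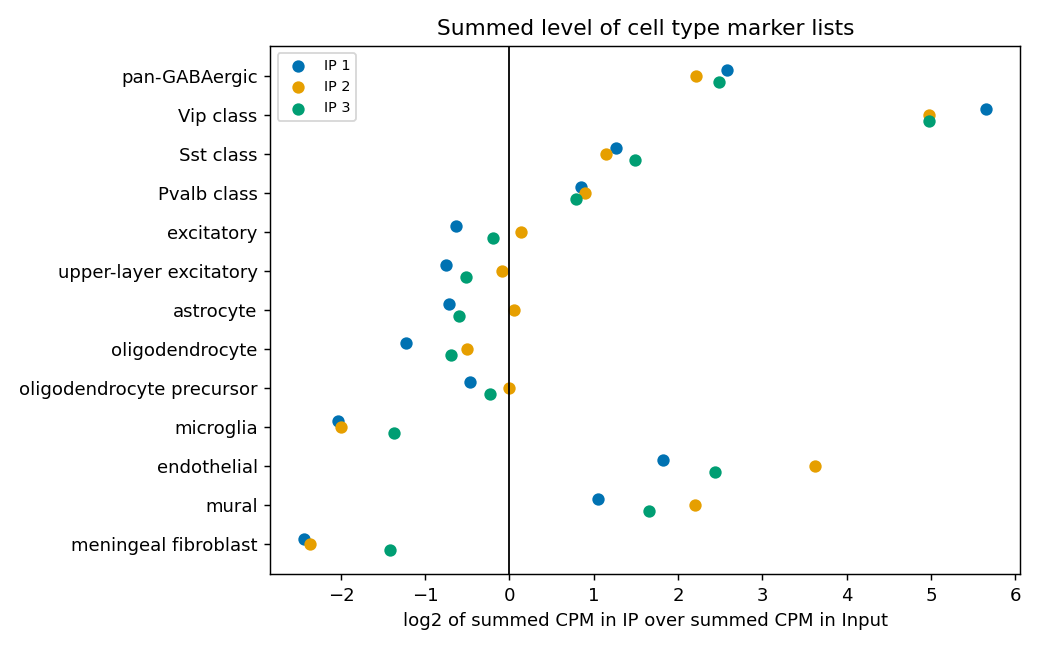
Log2 ratio of the summed CPM of each marker list in IP 1, 2 and 3 to that in the Input (x axis). The GABAergic, Vip class, Sst class, Pvalb class, endothelial and mural sums lie above the Input in all 3 IP libraries. The excitatory and astrocyte sums lie on both sides of it.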

How the data were processed

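RNA of whole prefrontal cortex (Input, 1 library) and of captured polysomes (IP, 3 libraries) was sequenced. Raw gene-level counts were deposited by the authors with Entrez identifiers and symbols per the file headers. The submitters' processing notes name STAR 2.0.0e, HTSeq and mm10. The deposited tables are also named for subread, so the counter is not settled, and strand and treatment of multiply mapped reads are not given in the sources used here. Of 24100 genes, 9 have no symbol (at most 0.0221% of a library's counts) and were kept by identifier.

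With edgeR 4.0.16 under R 4.3.3, filterByExpr (minimum count 10) chose the genes and TMM the scale. IP was compared with Input by the two-sided quasi-likelihood F test with Benjamini-Hochberg adjustment over all genes kept and a threshold of 0.05. Dividing the log2 fold by root F gave the SE. Only IP libraries inform the spread (residual degrees of freedom 2, prior 17.0), so the lone Input was assumed to vary like them. A single count was worth 0.0436 to 0.107 CPM, and 0 counts allow up to 3. The script was tested on simulated data. Alternatives included DESeq2 1.42.0 and limma-voom (limma 3.58.1). Positions and exon lengths come from GENCODE M21 (GRCm38), which need not be the counting annotation.

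The 8 genes and all lists were chosen with earlier results of these data known, and some lists share genes. The result of 1 further list is not reported here. By rule, called members or otherwise the 2 most abundant were named for lists of partners. Named beyond the rule, with their values already known, were Gab2, Vldlr, Lrp8, F11r, Jam3, Npy, Fam19a1, Nkx2-1, Tmem182, Krt73, Slc17a8, Lhx1, Lhx5 and Calb2. So were Crh, Cnr1, Htr3a, Adarb2, Erbb4 and Ptgds.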

Additional observations from a re-analysis of the deposited data

How the results depend on the processing

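The lone Input limits every comparison. Kit kept its direction and its call under all 11 alternatives. Lamp5, Ndnf, Kitl, Jam2, Id2 and Sncg kept their direction and did not pass under any that tested them (Sncg had no adjusted p with DESeq2 and no value under the minimum mean of 5 CPM). The number of the 8 genes called was 2 with DESeq2, where Reln joined Kit, and 1 to 1 without each IP library. The number of all genes called was 108 when low counts were not filtered, 181 by DESeq2 and 39 at an adjusted p under 0.01, and 90 to 210 without each IP library. The cause was not tested. The median log2 fold of all genes went from 0.083 to -0.13 with upper-quartile factors and -0.19 with library totals. With these factors in turn the folds of Lrp8 (-0.10 and -0.16), Pafah1b1 (-0.081 and -0.14), Dab1 (-0.13 and -0.19) and Lamp2 (-0.042 and -0.099) changed sign. So did Dab1 under the 5 CPM minimum (-0.033) and under limma-voom (-0.00015). Leaving out each IP library gave -0.15 (without IP 3) to 0.24 for Lrp8, -0.0090 (without IP 1) to 0.24 for Pafah1b1, -0.31 (without IP 3) to 0.31 for Dab1 and -0.11 (without IP 2) to 0.36 for Lamp2, and Lamp1 ranged from -0.13 to 0.026 (without IP 3). None of these genes passed in any setting. No paired analysis was possible because the Input is a single library.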
